A study of Mus musculus and synthetic construct with 3 samples.

Results

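Lane 1 is 1 of the 2 lanes of a sequencing flow cell that carried spatial barcodes, and its members are all barcodes that the deposited coordinates place in lane 1 on tiles of the series numbered in the 2000s, which form 2 rows of 16 along the lane. Tiles are named here by that row and their position, 1 to 16. The members were 4251778 of 9837644 barcodes, and they held 4453413 exonic UMIs (unique molecular identifiers, each a counted RNA molecule), which was 51.4% of all exonic UMIs in the series (95% exact binomial interval 51.3 to 51.4%). The series is a Seq-Scope study of abdominal aortic aneurysm. In Seq-Scope a frozen section is laid on a flow cell whose clusters carry barcodes of known position, and RNA is captured where it lies. The labels describe male Apoe-/- mice aged 16 weeks, the knockout of apolipoprotein E being common to all, fed a normal diet, which received angiotensin II (AngII, 1000 ng/mL in the labels, per kg body weight and minute in the methods) or saline for 4 weeks. Sections 10 µm thick came from 3 mice with aneurysm and 3 controls, 10 sections per condition, and the protocol states that they shared 1 imaging area. No label says what lies on lane 1, so no mouse, arm or tissue can be assigned to it. The 2 RNA libraries were pooled in 1 matrix without a map from barcodes to libraries, which leaves each lane as 1 unit without replicates. Lane 1 and lane 2 are therefore compared without a test, and every interval covers counting error only. The 32 tiles of a lane are neighbouring pieces of 1 surface, not replicates.

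As background, the large bowel is lined by an epithelium folded into crypts, whose goblet cells secrete mucin and whose surface cells absorb salt and water. Plasma cells of the layer beneath make IgA, and a coat of visceral smooth muscle surrounds the whole. The wall of the aorta is instead made of vascular smooth muscle, fibroblasts and elastic matrix, rich in matrix Gla protein (Mgp), with fat around it. Cells of the neuroendocrine lineage, in the gut, the adrenal medulla and sympathetic ganglia, store granins such as Chga in secretory granules.

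Values below are CPM, the exonic UMIs of a gene or list for every 1000000 UMIs of its lane, tile or area, after the 8551 of 32285 genes whose symbols start with mt- or Gm were left out. A gene or marker list was counted as higher or lower where its CPM in lane 1 was at least 2-fold that in lane 2 or at most 1/2 of it, among genes with 50 or more UMIs over both lanes. By that rule 1344 of 11612 genes were higher in lane 1 (11.6%) and 4408 were lower (38.0%). The median gene had a log2 ratio of -0.71. When the lanes were scaled instead by the median ratio of genes with 50 or more UMIs in each lane, a shift of -0.45 on the log2 scale, 1973 genes were higher and 2622 were lower.

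The label gives the tissue as aorta, and the genes that define that wall were low in lane 1. Mgp, the most abundant of them, had 1180 UMIs (289 CPM) in lane 1 against 43854 (11758 CPM) in lane 2, a ratio of 0.0246. The 13 genes of the fibroblast matrix list together had 4440 CPM in lane 1 and 32336 CPM in lane 2, and 12 of the 13 were lower. The endothelium list stood at 235 against 1700 CPM with 9 of 10 lower, white fat at 1884 against 9338 CPM with 11 of 12 tested lower, and macrophages at 1143 against 5128 CPM with 12 of 14 tested lower. Fabp4 belongs to both the endothelium and the white fat list, and it supplied 3607 of the 6339 endothelium UMIs in lane 2. Of the 7683 white fat UMIs in lane 1, Scd1 supplied 5671 and Adipoq 16. The smooth muscle list was lower too, at 6176 against 16927 CPM, with 8 of 14 lower. All of these shares lie above the 38.0% of all genes that were lower. These 5 lists kept a ratio under 1/2 with the other scalings, filters and larger tile sets tried, except that smooth muscle had a log2 ratio of -0.63 on whole-gene UMIs. Among the 10 genes of lowest ratio were Sost, a secreted antagonist of Wnt signalling (4 against 757 UMIs), and the cartilage oligomeric matrix protein Comp (10 against 982 UMIs). Each of the 10 had 12 or fewer UMIs in lane 1.

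Other genes were far more abundant in lane 1 than in lane 2. Eef1a1, the translation elongation factor, was the most abundant gene of lane 1 with 117998 UMIs, or 28939 CPM against 4386 CPM in lane 2, 6.60-fold higher (interval 6.49 to 6.71). Lrrc58, which encodes a leucine-rich repeat protein, had 35234 UMIs against 699, a ratio of 46.1 (42.8 to 49.8). Cirbp, a cold-inducible RNA-binding protein, had 8145 against 166 UMIs, a ratio of 44.9 (38.5 to 52.7). The highest ratio belonged to Rpl39l, a copy of a ribosomal protein gene, with 2628 against 17 UMIs and a ratio of 141 (88.1 to 243). In all 4 genes the lane 1 level exceeded anything seen in a tile of lane 2. The highest lane 2 tile had 5480 CPM of Eef1a1, 615 CPM of Lrrc58, 101 CPM of Cirbp and 40.1 CPM of Rpl39l. The lowest tile of lane 1 outside its last 4 had 28676 CPM, 8776 CPM, 1983 CPM and 590 CPM of the same genes.

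The others among the 10 highest ratios were Zfp711 (1018 against 19 UMIs), Pnmt, which makes adrenaline (107 against 2), the granin Chga (3269 against 70), Pip5k1b (180 against 4), Ptprn, a protein of secretory granules (324 against 9), Spata20 (281 against 8) and Sez6l2 (792 against 23). Cnih2 had 71 UMIs in lane 1 and 0 in lane 2, at least 21.6-fold higher against a floor of 3 UMIs over the lane. The direction of 1 of the 10 turned with the counting. Over whole genes, introns included, Pip5k1b had a log2 ratio of -0.50 in place of 5.36. For Lrrc58 the whole-gene column held only 5097 UMIs in lane 1 and 569 in lane 2, fewer than the exonic column, and the log2 ratio was 3.89 in place of 5.53. The 20 genes of most UMIs in lane 1 were mainly ribosomal protein genes, Rpl17 (21548 UMIs) and Rpl13a (20074 UMIs) leading them, with Eef1a1 and Naca, the nascent chain companion of the ribosome. The others were Lrrc58, Serf2 with 21384 UMIs, the actin-binding thymosin Tmsb4x with 18726 UMIs, the gut genes Mptx1 and Clca1, the plasma protein Alb, and Apoe itself.

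**Figure D1:**
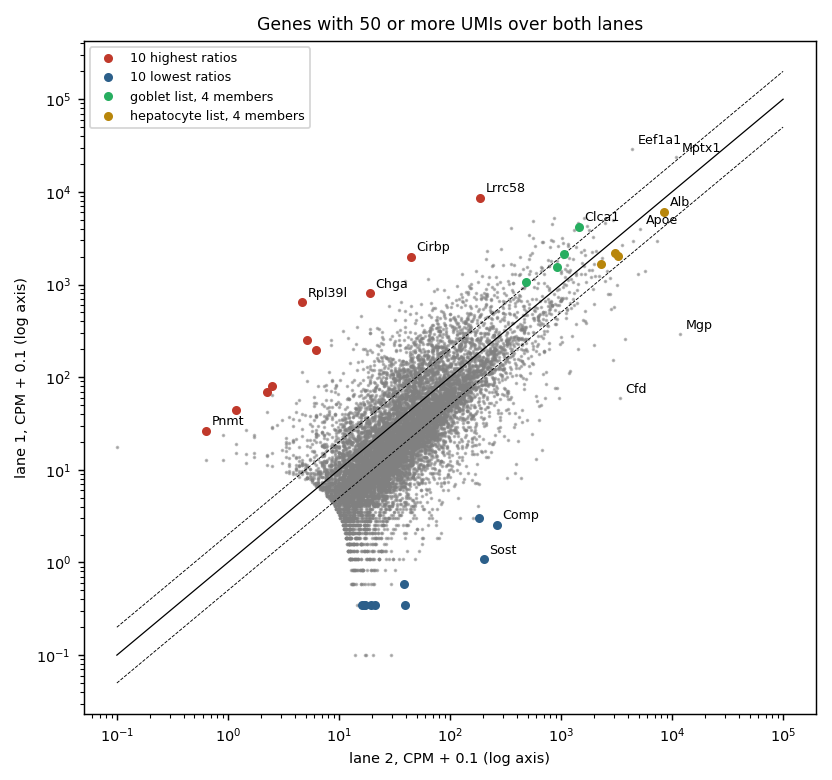
CPM in lane 2 (horizontal) against lane 1 (vertical) for each gene with 50 or more UMIs over both lanes, both on log axes with 0.1 added; the solid line is equality and the dashed lines are 2-fold. Lrrc58, Cirbp, Rpl39l and Chga lie far above the lines, Mgp, Comp and Sost far below, and the goblet and hepatocyte genes lie near the upper dashed line and just under equality.

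Lane 1 was not uniform. Its UMIs per tile ran from 33911 to 536907, with a median of 91501, and its 2 deepest tiles, tile 16 of each row, lay side by side at the end of the lane. Together they held 1040214 exonic UMIs, 23.4% of the lane. Those tiles had a profile of their own, tile 15 of each row was intermediate, and the other 28 tiles resembled each other. Of 7796 genes with 50 or more UMIs in lane 1, 1730 (22.2%) were uneven across the 32 tiles, meaning that the lower counting bound of their highest tile was at least 2-fold the upper bound of their lowest tile. Without the last 4 tiles 84 of 6172 genes (1.36%) were. The bounds narrow with depth, which reached 300996 UMIs among the 28 tiles, against 503307 and 536907 in the 2 deepest. The genes tested differed too, so how much of the fall comes from the loss of the deepest tiles was not tested. Those areas were defined after their values were seen, so the differences between them are a description.

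The 2 deep tiles held 1 compact area, called the dense area below, for which CPM are those of both whole tiles. In squares of 50 µm, using a scale of 26.7 position units per µm estimated from the stated width of the imaging area, 1245 squares had 100 or more UMIs, a surface of 3.11 mm2 that ran 2.95 mm along the lane and took 96.6% of the 2 tiles' UMIs. Its leading gene was Mptx1, a mucosal pentraxin of the large bowel, with 52934 CPM in tile 16 of row 1 and 60552 CPM in that of row 2. In the 28 other tiles Mptx1 ranged from 11518 to 19752 CPM. Clca1, a protein secreted with goblet cell mucus, followed with 10731 CPM in the 2 tiles against 2155 CPM in the 28, a ratio of 4.98. All 9 genes of the goblet list were at least 2-fold higher in the dense area, from 3.54-fold for Fcgbp, a mucus protein that binds IgG, to 4.98-fold for Clca1, against 32.7% of 7694 genes tested. The median gene tested between the dense area and the 28 tiles had a log2 ratio of 0.44. The gel-forming mucin Muc2 had 4885 against 1225 CPM, its partner lectin Zg16 2205 against 528 CPM, and the trefoil peptide Tff3 542 against 139 CPM. Lypd8, which keeps bacteria off the colon surface, had 5847 against 1518 CPM. Hoxb13, a gene of the hindmost body segments, stood at 327 against 73.5 CPM.

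Genes of absorbing colon cells went the same way. In the dense area 7 of 9 tested members of the colonocyte list were at least 2-fold higher, against 32.7% of all genes. Car1, a carbonic anhydrase, had 139 against 33.0 CPM, the guanylin precursor Guca2a 163 against 34.0 CPM and the chloride exchanger Slc26a3 123 against 38.9 CPM. Aqp8, a water channel, had 30.9 against 29.1 CPM. The enterocyte list had 5472 CPM in the dense area and 5139 CPM in the 28 tiles, with 3 of 17 tested higher and 10 lower, where 22.5% of all genes were lower. Lgals4, a galectin of gut epithelium, supplied 3267 of the list's 5143 UMIs in the dense area at 3476 against 1049 CPM. In the Paneth list, named for a cell of the small bowel crypt, Ang4 supplied 2049 of the 2163 UMIs in the dense area. The defensins Defa17, Defa24 and Defa30 had 15, 11 and 5 UMIs there, Lyz1 had 3, and Defa21, Defa22, Defa23 and Defa26 had 0 in the whole lane. Ileal bile acid transport genes had 38 UMIs in all, or 40.4 CPM. The hormone genes Pyy, Insl5 and Gcg, of hindgut endocrine cells, stood at 359, 467 and 41.5 CPM against 84.3, 101 and 10.5 CPM. The enteroendocrine list as a whole had 716 against 1152 CPM, with 3 of 5 tested higher and 1 lower, Chga at 186 against 999 CPM. Of all genes 32.7% were higher and 22.5% lower.

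Smooth muscle genes were higher in the dense area too. The smooth muscle list had 14132 CPM in the dense area and 3691 CPM in the 28 tiles. At least 2-fold higher were 13 of its 14 members, where 32.7% of all genes tested were. Tagln, an actin cross-linking protein, had 3205 against 311 CPM, 10.3-fold higher (9.58 to 11.1), and Acta2, the vascular actin, had 3000 against 916 CPM. Actg2, the actin of visceral muscle, had 1228 CPM in the dense area, 366 CPM in the 28 tiles and 363 CPM in lane 2 without its first tiles. Acta2 in that remainder of lane 2 had 5532 CPM. Actg2 was thus higher and Acta2 lower in the dense area than in that part of lane 2. Plasma cell genes were higher as well, with the kappa chain Igkc at 2416 against 1061 CPM, the joining chain Jchain at 904 against 260 CPM and the IgA heavy chain Igha at 1596 against 982 CPM, a ratio of 1.63. Among these genes Igha lay nearest to the shift of the median gene, a log2 ratio of 0.44.

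Smooth muscle genes also separated in space from Mptx1 and goblet genes. This was seen over the 1313 squares of the last 4 tiles with 100 or more UMIs, most of which lay in the dense area. In the 328 squares of highest smooth muscle CPM, Mptx1 stood at 27802 CPM, and in the 328 squares of lowest at 68989 CPM. The first set held 126179 UMIs and the other 324688. Between the same sets of squares Zg16 had 689 against 3496 CPM, Clca1 5128 against 13672 CPM and Muc2 3329 against 5227 CPM. Sparcl1, a matrix protein, and Cpe, which trims peptide hormones, went the other way, with 1696 and 1704 CPM in the muscle-rich squares against 111 and 136 CPM. The plasma cell gene Igkc did not separate in this way. It had 1996 CPM in the muscle-poor squares, 2890 CPM in the 657 squares between and 1696 CPM in the muscle-rich squares. Across all 1313 squares the smooth muscle list and Mptx1 had a Pearson correlation of -0.53 and a Spearman correlation of -0.57. These squares share their libraries and their depth enters both values.

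Lypd8 and Zg16 had a Pearson correlation of 0.52 and a Spearman correlation of 0.46 over the same squares. Lypd8 and Reg4, a lectin of deep crypt secretory cells, had -0.08 and 0.02, weak values of unlike sign in sparse counts. Lypd8 and the smooth muscle list had -0.33 and -0.42. In the 328 squares of highest Lypd8 CPM, Zg16 had 5575 CPM, the sulfate carrier Slc26a2 1315 CPM, Selenbp1 1639 CPM, the antioxidant enzyme Prdx6 2822 CPM and Guca2a 351 CPM. In the 328 squares of lowest, all of which had no Lypd8 UMI, they had 655, 246, 287, 297 and 30.7 CPM. The sets differed in depth, with 259350 UMIs in the first and 97710 in the other. The parts of depth and of muscle content in these values were not tested. Reg4 had 3139 CPM in the first set and 3766 CPM in the second, the secretory peptide Spink4 2391 and 3060 CPM, and the glutathione peroxidase Gpx2 1068 and 1934 CPM. Mptx1 had 54382 CPM in the first set and 33814 CPM in the second.

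**Figure D2:**
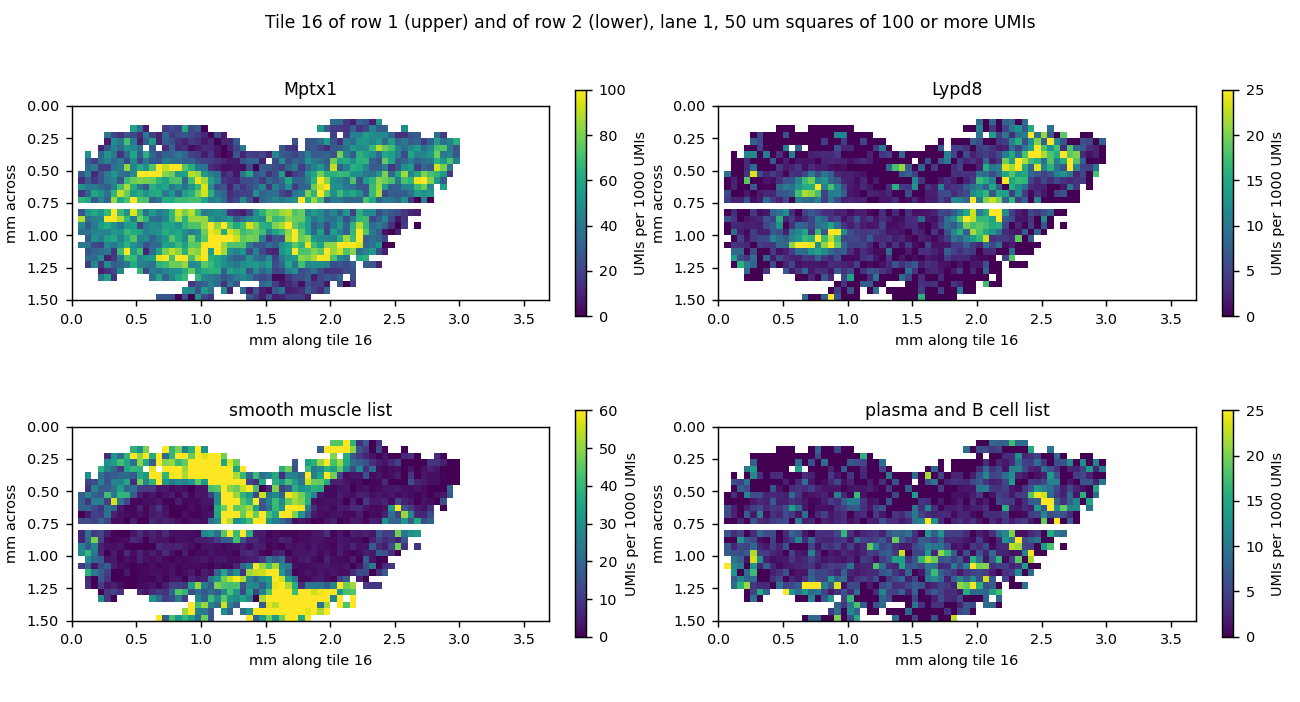
UMIs of a gene or list per 1000 UMIs in 50 µm squares with 100 or more UMIs, for Mptx1, Lypd8, the smooth muscle list and the plasma and B cell list, with tile 16 of row 1 above that of row 2; axes are mm along and across the lane on an estimated scale. Smooth muscle is highest in bands at the upper left, middle and lower right, Mptx1 is low in those bands, and Lypd8 is highest in a few patches away from them.

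In hexagons with sides of 12 µm, the unit of the study, the dense area gave 3853 of the 7442 hexagons of lane 1 that had 75 or more genes. Mptx1 had a UMI in 97.2% of them (exact binomial interval 96.6 to 97.7%), Clca1 in 72.7%, Lypd8 in 51.5%, Tagln in 23.3% and Igkc in 27.1%. Since 3745 of the 3853 hexagons had Mptx1, those without were few and shares among them are uncertain. Tagln was found in 22.5% of hexagons with Mptx1 and in 50.9% of those without. The liver protein Alb had a UMI in 34.6% of the same hexagons, and the share was 34.9% with and 25.9% without Mptx1. No background level was measured for each gene, and the share of Alb sets none for the others. Shares of that size, those of Tagln and Igkc among them, are therefore read neither as presence in a hexagon nor as background. Acta2 was found in 57.9% of hexagons with Tagln and in 17.9% of those without. The hexagons had a median of 163 UMIs.

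The other 28 tiles had a near constant profile over 3325585 exonic UMIs. Eef1a1 ranged from 28676 to 38783 CPM among them, Lrrc58 from 8776 to 12810 CPM, Cirbp from 1983 to 2846 CPM and Naca from 3931 to 5798 CPM. In the dense area the same 4 genes stood at 10412, 1905, 483 and 1326 CPM. The genes most reduced in the dense area relative to the 28 tiles, among those with 200 or more UMIs, were Dlk1, an imprinted membrane protein of progenitor and endocrine cells (439.6 against 42.6 CPM), Rpl39l (823 against 86.2 CPM) and Abca1, the cholesterol exporter (286 against 30.9 CPM). The imprinted zinc finger gene Peg3 had 739 against 90.4 CPM and the orphan nuclear receptor Nr4a1 1426 against 267 CPM. Tagln and the brain cytoplasmic RNA Bc1 stood at the opposite end, with Bc1 at 21.2 CPM in the 28 tiles, 232 CPM in the dense area and 951 CPM in lane 2 without its first tiles. Of the genes compared between the 28 tiles and lane 2 without its first tiles, 1452 of 10805 were at least 2-fold higher in the 28 tiles (13.4%) and 5094 were lower (47.1%). The median gene of that comparison had a log2 ratio of -0.91. Mitochondrial genes made up 3.23% of exonic UMIs in the 28 tiles, 8.19% in the dense area and 7.79% in lane 2.

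Ribosomal protein genes showed how far that profile lay from both the dense area and lane 2. Against lane 2, 27 of 82 such genes were at least 2-fold higher in the 28 tiles and 8 were lower, where 12.5% of 11218 genes were higher and 48.6% lower. They ran from 0.375-fold for Rpl41 to 181-fold for Rpl39l. Rps27 had 5957 against 562 CPM, Rplp2 4147 against 511 CPM, Rpl10 320 against 28.7 CPM, while Rplp1 had 1460 against 3216 CPM and Rpl6 851 against 2183 CPM. The SD of the 82 log2 ratios was 1.48. In the dense area it was 0.51 over 81 genes, with 7 higher and 0 lower than in lane 2, where 7.02% of 10631 genes were higher and 25.8% lower. Ribosomal genes have many near-identical copies, and counts of a gene and its copies are uncertain where reads were divided among them.

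**Figure D3:**
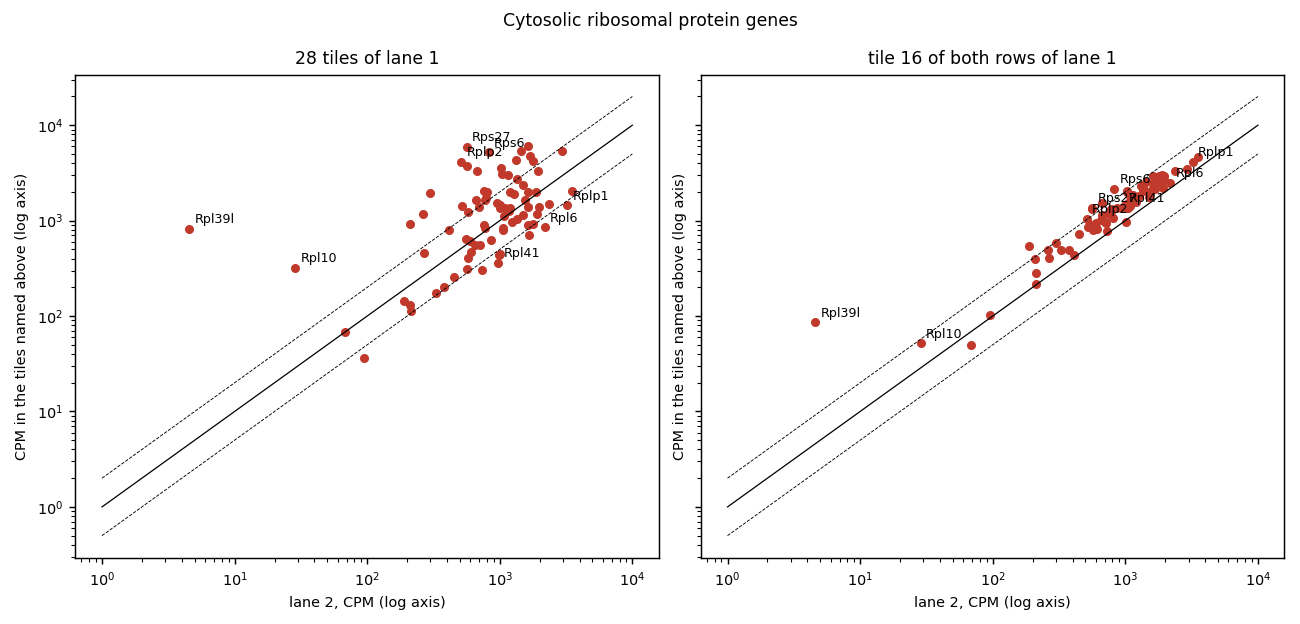
CPM of cytosolic ribosomal protein genes in lane 2 (horizontal) against the 28 tiles of lane 1 (left) and the 2 deep tiles (right), on log axes with lines of equality and 2-fold. On the left the genes scatter to both sides of the lines, with Rps27 at 5957 CPM above and Rpl41 at 363 CPM below, and on the right they lie closer to equality, with Rpl39l as the farthest above it.

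Rpl39l is shown beside its parent gene because it had the highest ratio between the lanes while the parent did not differ by 2-fold. Rpl39 had 4107 UMIs in lane 1 and 3929 in lane 2, a ratio of 0.956. The copy thus took 39.0% of the UMIs of the pair in lane 1 and 0.431% in lane 2. The coding parts without the stop codon, 153 bases each in the GENCODE vM21 transcripts of the GRCm38 build, lie in 1 exon at chr16:10174310-10174462 on the plus strand for Rpl39l and in 3 exons within chrX:37082704-37085127 on the minus strand for Rpl39. They differ at 23 bases, shown in capitals, and are 85.0% identical, with 38 bases as the longest identical run.
Rpl39l: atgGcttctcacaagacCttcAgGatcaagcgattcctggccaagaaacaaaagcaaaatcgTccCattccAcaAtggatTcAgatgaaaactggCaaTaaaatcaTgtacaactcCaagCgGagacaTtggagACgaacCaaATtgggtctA
Rpl39: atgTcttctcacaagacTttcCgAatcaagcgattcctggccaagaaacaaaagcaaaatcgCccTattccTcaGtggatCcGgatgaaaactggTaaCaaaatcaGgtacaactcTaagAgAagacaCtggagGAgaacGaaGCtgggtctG
Other copies also took a larger share of their pair in lane 1. Rpl36a-ps1 took 39.8% of the UMIs it shared with Rpl36a in lane 1 and 11.5% in lane 2, and Rpl9-ps6 39.0% with Rpl9 against 12.2%. Rps27rt took 32.1% with Rps27 in lane 1 and 27.6% in lane 2. Of these copies only Rpl39l was picked by its ratio, and the others were chosen after their values were seen.

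The lanes also differed in the ratio of exonic to whole-gene UMIs. That ratio is not a share, since for Lrrc58, Naca and some other genes the exonic column exceeded the whole-gene column. The reason could not be worked out from the files, so the exonic counts of these genes are uncertain. Lane 1 had 84.3 exonic UMIs for every 100 whole-gene UMIs, and its tiles ranged from 78.0 to 86.7. Lane 2 had 47.4, and its 32 tiles ranged from 41.1 to 68.7, so that no tile of 1 lane reached the range of the other. The dense area of lane 1 stood at 82.8 and the 2 gut-rich first tiles of lane 2 at 63.5. By whole-gene UMIs lane 1 held 37.3% of the series in place of 51.4%.

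Among 1768 genes with enough UMIs to be compared by square, Chga was the least evenly spread over the 28 tiles. Over 1838 squares of 200 µm with 300 or more UMIs, its counts varied 5.42 times as much as even mixing by depth would give, where the median gene was at 1.03. Next came Scg2, a second granin, at 2.40, the mitochondrial leucine tRNA synthetase Lars2 at 2.22 and the nuclear RNA Malat1 at 2.21, and no other of these genes reached 2. Of the 3022 Chga UMIs in these squares, 54.0% lay in the 92 squares with most, which held 14.4% of all UMIs, and 957 squares had none. By tile, Chga reached 4019 CPM in tile 9 of row 1 (399 UMIs). It had 2436 CPM in tile 3, 1944 CPM in tile 8 and 1535 CPM in tile 5 of the same row, and 2160 and 1099 CPM in tiles 13 and 14 of row 2. In the other 22 tiles it ranged from 343 to 860 CPM, which was still above the 18.8 CPM of lane 2. Those 6 tiles held 59.7% of the lane's Chga UMIs and 22.5% of all its UMIs.

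Other genes also peaked in the tile where Chga did. Of the 84 genes uneven across the 28 tiles, 19 had their highest level in tile 9 of row 1, more than in any other tile. Named here after their values were seen, they included Stmn2, a tubulin-binding protein of neurons (544 CPM in that tile), Snap25, which serves vesicle fusion (201 CPM), and Pnmt (24 of its 107 UMIs). Ptprn, Cnih2, Scg2, Itm2c, Sdc2, Aplp1 and Cd24a belonged to the same 19. Of the neuron and glia list, Snap25 alone was among the 84. In the 92 squares richest in Chga, Scg2 had 1353 CPM and elsewhere 248 CPM, and Ptprn had 296 and 65.4 CPM. The genes common to all 28 tiles varied less between the same sets of squares, with Eef1a1 at 31913 and 35432 CPM and Lrrc58 at 11785 and 10670 CPM. Over the 1838 squares the correlation of Chga with Scg2 was 0.48, with Ptprn 0.22 and with Eef1a1 -0.15. The genes of catecholamine synthesis other than Pnmt were near the limit of detection, with 6 UMIs of Dbh and 1 of Th in lane 1, and of the adrenal cortex genes Cyp11b1, Cyp11b2 and Hsd3b1 had 0, Star 8, Cyp11a1 9, Cyp21a1 9 and Akr1b7 18 UMIs. The enteroendocrine list, at 1045 against 120 CPM between the lanes, owed 3269 of its 4260 UMIs to Chga.

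**Figure D4:**
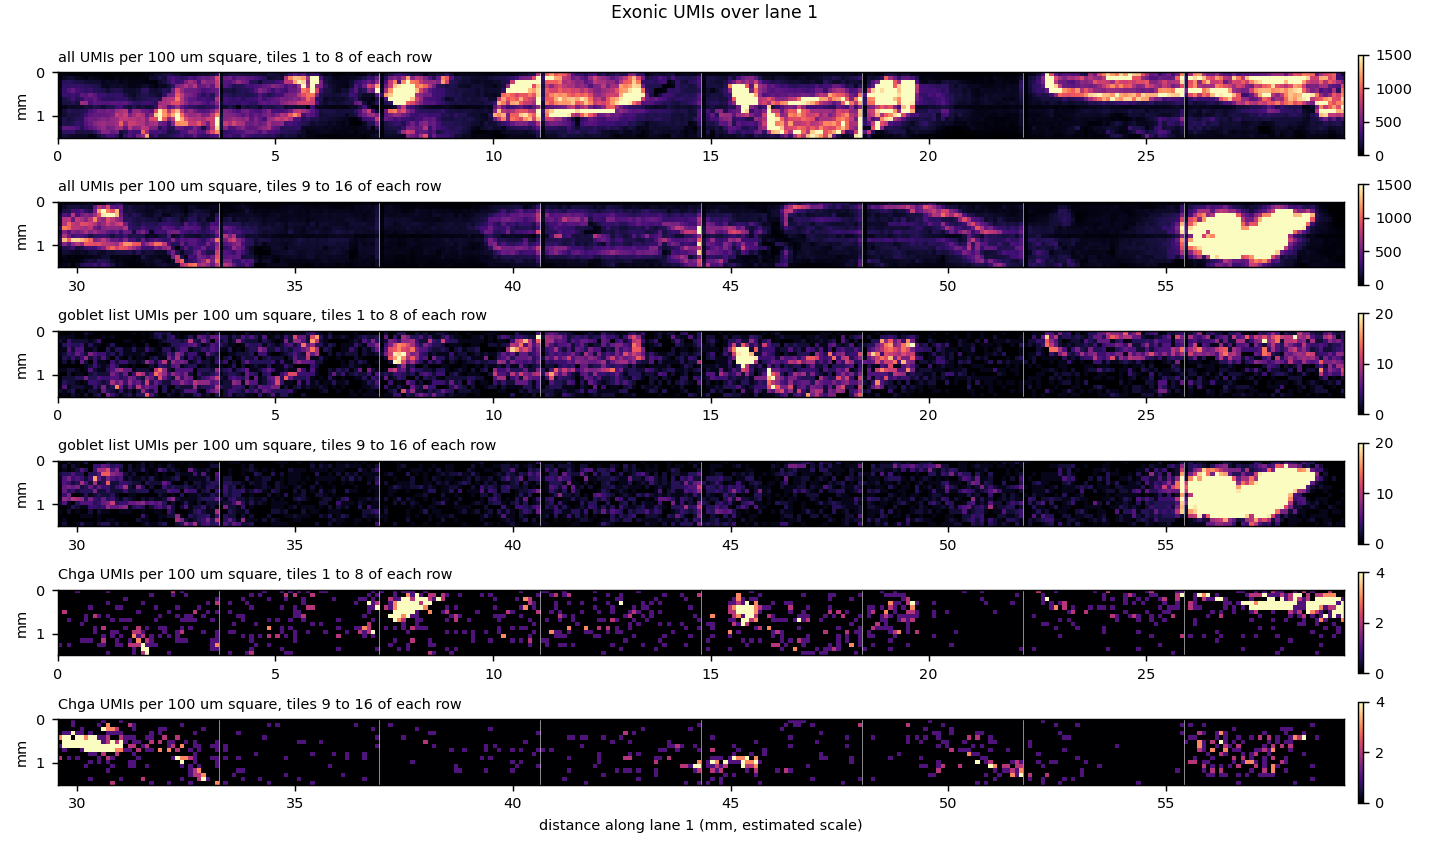
Exonic UMIs per 100 µm square along lane 1 (horizontal, mm on an estimated scale) and across it (vertical, mm), for all genes, the goblet list and Chga, with each map drawn as 2 strips and thin lines between tiles. Curved outlines appear in the total map outside tile 16, the compact area of tile 16 saturates the total and goblet maps, and Chga forms separate patches, such as those in tiles 3, 5, 8 and 9.

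Actc1, the cardiac actin, had the largest tile ratio of all genes with 50 or more UMIs in the lane. It had 19 of its 92 UMIs in tile 7 of row 2, which held 0.804% of the lane's UMIs, and it raised the heart muscle list there to 610 CPM. Actg2 and the elastin gene Eln also peaked in tile 7 of row 2 among the 28 tiles, at 1312 and 763 CPM. That tile was shallow. Bc1 and Ramp1 peaked in tile 15 of row 1, with 15 and 9 UMIs, and Zfp281, Vgf, Gins3, Hal and Zfp395 peaked with 5 to 11 UMIs each, counts too small to set 1 tile firmly above the rest.

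Liver genes were found in every tile of both lanes. The hepatocyte list had 82029 UMIs in lane 1 (20118 CPM) and 107639 in lane 2 (28860 CPM), a ratio of 0.697 (0.691 to 0.703). Only 1 of 20 members, the cytochrome Cyp2e1, was lower by 2-fold, where 38.0% of all genes were. The log2 ratio of the list was -0.52, where that of the median gene was -0.71. It was -0.07 under median scaling, and on whole-gene UMIs the direction turned to 0.32. Alb, the plasma protein of hepatocytes, had 24904 and 31577 UMIs. It ranged from 6106 to 8608 CPM over the 28 tiles of lane 1 and had 2560 and 2474 CPM in the 2 deep tiles, and over lane 2 it ranged from 5751 to 10569 CPM. All 20 members were at least 2-fold lower in the dense area than in the 28 tiles, where 22.5% of genes were, and the list had 8616 against 23604 CPM. Alb, Mup20 and Trf kept similar proportions in the 4 areas compared, while some members did not. Alb made up 29.2% of the list's UMIs in the dense area, 30.4% in the 28 tiles, 29.4% in the first 2 tiles of lane 2 and 29.3% in its other 30 tiles. The pheromone carrier Mup20 made up 10.7, 10.9, 10.4 and 10.6%, and transferrin (Trf) 10.6, 9.98, 11.3 and 11.3%. Cyp2e1 made up 0.852, 0.987, 1.42 and 1.67%, and Serpina1c, a protease inhibitor, 2.16, 2.32, 1.53 and 1.67%.

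Liver and goblet genes followed the total depth of the 28 tiles. Over 8948 squares of 100 µm the hepatocyte UMIs correlated with all UMIs at 0.95, goblet UMIs at 0.86 and Chga UMIs at 0.45. These counts share their depth. The hepatocyte list fell from 28443 CPM in the shallower 4487 squares to 21563 CPM in the 89 deepest, and the goblet list from 7936 to 5537 CPM. Eef1a1 rose over the same range from 31222 to 36283 CPM and Lrrc58 from 9292 to 12513 CPM. The goblet list had 6419 CPM in the 28 tiles and 3155 CPM in lane 2 without its first tiles, whose tiles ranged from 2757 to 4787 CPM.

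Of 35 marker lists, 3 were higher in lane 1, 15 were lower, 16 were neither and 1 was too low to compare. The higher ones were goblet (2.26-fold, 7 of 9 members higher), Paneth (2.19-fold, 1 of 7 tested, which was Ang4) and enteroendocrine (8.68-fold, 5 of 6 tested), where 11.6% of all genes were higher. Without the last 4 tiles of lane 1 only the enteroendocrine list was, with goblet at a log2 ratio of 0.34 and Paneth at 0.35. Leaving out tile 16 of row 1 or of row 2 alone gave the same count of 1. The count was 2 when the first tiles of lane 2 were left out as well as the last 4 of lane 1. Goblet then had a log2 ratio of 1.02 and Paneth 0.77. The simple epithelium list, keratins and adhesion genes, had 3402 against 1960 CPM. The plasma and B cell list had 3060 against 2825 CPM, with Igkc at 1392 against 1139 CPM. Red cell genes were lower, at 502 against 2062 CPM, as were MHC class II genes, at 603 against 2017 CPM. Of their members, 5 of 6 tested and 6 of 6 were lower, where 38.0% of all genes were. On whole-gene UMIs the red cell and MHC class II lists had log2 ratios of -0.94 and -0.91, short of 2-fold. Skeletal muscle genes summed to 180 UMIs in the lane, with Tnnc2, Actn3, Pvalb and Tcap at 0, neutrophil genes to 76 and T cell genes to 93. Lung, testis, stomach and pancreatic islet lists held 18, 2, 204 and 215 UMIs, and the kidney list 1731, of which 1072 were the protease inhibitor Spink1.

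**Figure D5:**
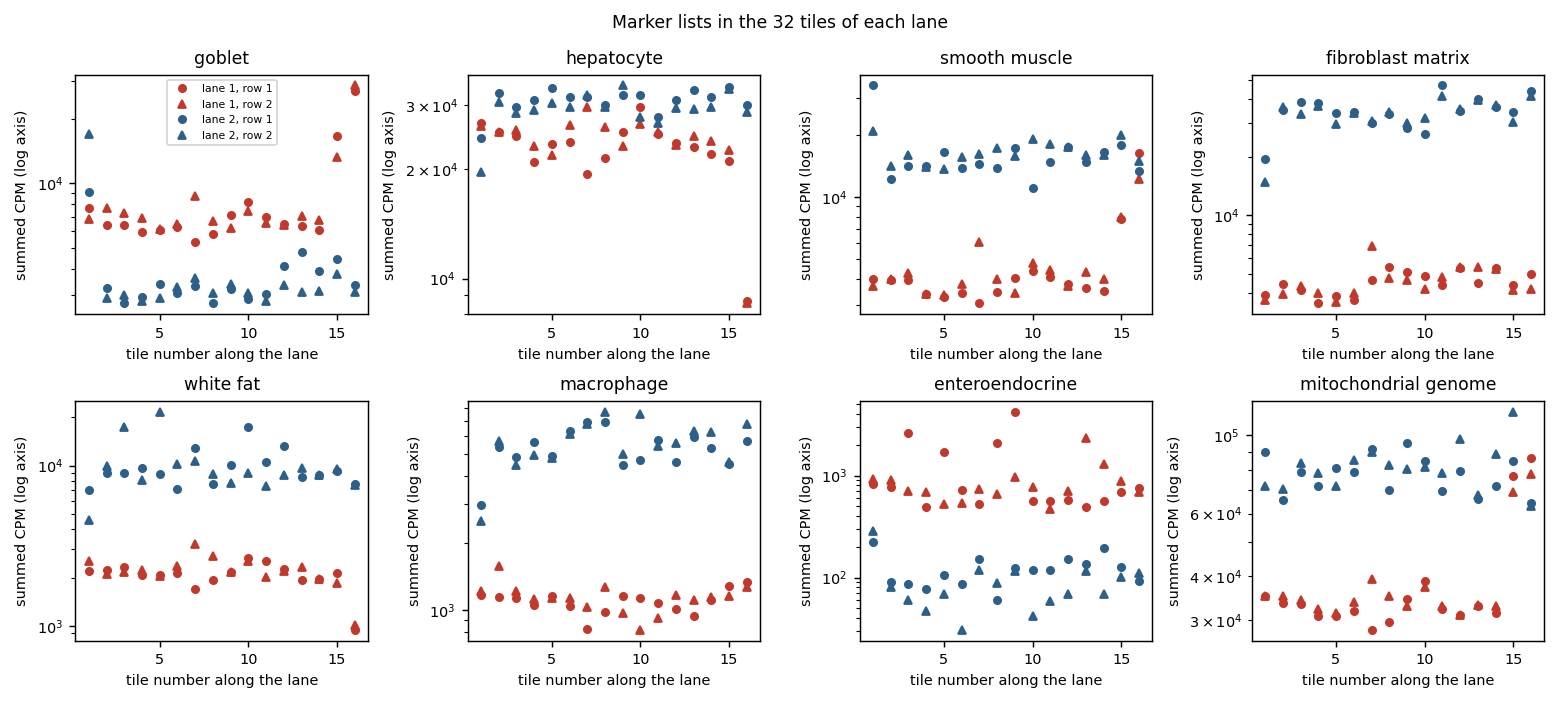
Summed CPM (log axis) of 8 marker lists in each of the 32 tiles of lane 1 (red) and lane 2 (blue), by tile number along the lane; circles are the first and triangles the second row of tiles, and the mitochondrial panel is relative to all exonic UMIs. Goblet and smooth muscle genes rise and hepatocyte genes fall at tile 16 of lane 1, while fibroblast matrix, white fat and macrophage genes stay below lane 2 in every tile.

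Within lane 2 the first tile of each row had the highest goblet levels. Together these tiles held 14310 CPM of the goblet list against 27719 CPM in the dense area and 30376 against 56888 CPM of Mptx1, and 110.5 against 1905 CPM of Lrrc58.

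The genotype and sex of the mice were looked up in lane 1. Apoe had 16204 UMIs, or 3974 CPM, against 19233 UMIs, or 5157 CPM, in lane 2. The labels do not say which part of the gene was altered, so its counts check nothing about the knockout. Its log2 ratio of -0.38 changed sign to 0.07 under median scaling and to 0.47 on whole-gene UMIs. It lay between 3720 and 5906 CPM in the 28 tiles and at 1981 CPM in the dense area. For male mice, the Y-linked genes Ddx3y, Uty, Eif2s3y and Kdm5d had 142, 44, 36 and 8 UMIs in lane 1 and 511, 68, 40 and 43 in lane 2. Xist, the RNA that silences an X chromosome in females, had 129 UMIs in lane 1 (31.6 CPM) and 115 in lane 2 (30.8 CPM). In the dense area Xist had 6 UMIs and Ddx3y 59, and in the 28 tiles they stood at 38.5 and 25.8 CPM. Over whole genes Ddx3y was higher in lane 1 (log2 ratio 0.81 in place of -1.98).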

How the data were processed

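The authors deposited 1 table of UMI counts per gene and spatial barcode, with exonic and whole-gene counts side by side, and a list of barcode positions. The submitters' processing notes name STARsolo 2.7.5c and mm10; how reads on several genes were counted is not given in the sources used here. Exonic counts were summed by lane, tile, square and hexagon, leaving out genes starting with mt- or Gm, and expressed as CPM. No lane 1 barcode sequence was shared with lane 2. All barcodes were kept whatever their depth, which was 1 UMI for 2857129 of 3531794 lane 1 barcodes with any. With 1 unit per lane no test was made; ratios carry exact 95% conditional binomial intervals and CPM exact Poisson intervals (scipy 1.17.1). The members and marker lists were chosen with earlier results of these data known. Named genes were the 20 of most UMIs, the 10 highest and 10 lowest lane ratios, up to 4 of most UMIs per list, the 10 largest tile ratios, and Apoe and sex genes; others were chosen after their values were seen. The calls were tried on simulated lanes, with Poisson counts drawn from 1 pooled profile and known changes. That setting holds no spread between samples, so it does not test the comparison of the real lanes. Of the file's gene IDs, 32158 of 32285 matched GENCODE vM21. Further count columns of the table were not used. Alternatives were other columns, scalings, filters and tile sets.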

Additional observations from a re-analysis of the deposited data

Results flagged for a closer look

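Signal also lay outside the tiles compared. Barcodes to which the files give no lane held 743 exonic UMIs, and lane 1 barcodes on tiles of the other series of numbers held 4057 exonic UMIs.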

How the results depend on the processing

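No paired analysis was possible because each lane is 1 unit and the result comes from no test. Some alternatives, those that leave out the last 2 tiles of each row of lane 1 or the first tile of each row of lane 2, were chosen after seeing the data. The lane 1 share of UMIs was 37.3% over whole genes, 52.2% without mt- and Gm genes, 51.4% over all lane 1 tiles, and 48.1 to 51.2% with single tiles left out. Genes higher in lane 1 numbered 882 in hexagons of 75 or more genes, where 6820 were tested, and 1328 to 1367 without single tiles. Genes lower numbered 8475 of 16793 tested over whole genes, 2622 of 11612 under median scaling and 1290 of 6820 in hexagons. They numbered 9515 of 21457 without a low-count filter and 1661 of 6179 with 200 or more UMIs. The main count was 4408 of 11612, and it was 4239 to 4825 without single tiles. Lists higher numbered 5 over whole genes, 6 under median scaling, 5 with lane 2 tiles weighted equally and 6 in hexagons. They numbered 5 without the first tiles of lane 2, 1 without the last 4 tiles of lane 1 and 2 without both. Without single tiles they numbered 1 to 4, 1 being the count without tile 16 of row 1 or of row 2. Lists lower numbered 12 over whole genes, 11 under median scaling, and 15 to 16 without single tiles. Uneven genes numbered 84 of 6172 tested without the last 4 tiles and 1365 to 1725 without single tiles. Of values past 2-fold, the log2 ratio changed sign on whole-gene UMIs for the sex genes list (0.073), Nefm (-0.21), Pip5k1b (-0.50) and Ddx3y (0.81). Lists not past 2-fold that also changed sign there were enterocyte (0.50), hepatocyte (0.32), exocrine pancreas (0.080), mitochondrial genome (0.088), neuron and glia (-1.25) and Apoe (0.47). The cause was not tested, except that filters and hexagons change how many genes are tested. Genes with few UMIs, such as Pnmt with 2 in lane 2, have wide intervals, and without replicates no difference can be set against the spread between samples.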
